A study of Mus musculus with 13 samples.

Results

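The glucocorticoid receptor (GR) was mapped by chromatin immunoprecipitation sequencing in livers of male mice after dexamethasone, and its binding sites in knockout (dKO) liver were set against those in control liver. The dKO animals carry the genotype label CRE and the control animals the label GFP, and the knockout includes the nuclear receptor corepressor NCOR1. How Cre was delivered and in which cells it was active are not given in the sources used here. Both groups received dexamethasone, a synthetic glucocorticoid, (1 mg/kg, injected at zeitgeber time 8), and tissue was collected 2 h after the injection, at zeitgeber time 10. Further groups of the same genotypes received vehicle, and NCOR1 itself was mapped in dKO liver under vehicle and in control liver under both treatments. Each GR group had 2 libraries, which were pooled into 1 peak list, so no value below has a spread between animals and no difference was tested over animals.

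The sites were chosen by position. A dKO peak and a control peak that overlapped by at least 1 bp were taken as 1 shared site, and a peak with no peak of the other list within 500 bp was called dKO-only or control-only. Of 44511 sites in either list, 24720 were shared, 3039 were dKO-only and 15227 were control-only. A further 619 dKO peaks and 906 control peaks lay beside a peak of the other list without overlapping it. The 7 peak lists of the series hold 217044 peaks in all.

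GR is a nuclear receptor that enters the nucleus when it binds a glucocorticoid and attaches to DNA as a dimer, on a palindrome of a pair of hexamers. In hepatocytes it is known for turning on genes of gluconeogenesis and amino acid breakdown and for restraining inflammatory genes. NCOR1 is a scaffold that carries the histone deacetylase HDAC3 to nuclear receptors and is best known as a corepressor of receptors without an activating ligand.

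Sequence was at hand for promoter windows (250 bases before to 50 after a start, RefSeq, GRCm38.p6, the assembly named mm10). The palindrome was searched as GNACANNNTGTNC, which reads the same on both strands. It occurred in 34 of 1131 windows that held a shared site (3.01%), in 2 of 151 with a dKO-only site (1.32%) and in 4 of 888 with a control-only site (0.450%). Of all 32851 windows 156 held it (0.475%). The stretches below are promoter palindromes under shared GR sites, with the 15 bases of the palindrome in capitals and up to 20 bases on each side. They are shown to set sites that were weakened in dKO liver beside sites at or above the typical ratio. The first pair lay under sites at least 2-fold below the median ratio of all shared sites, the next 3 under sites below it by less, and the last 3 under sites above it.
Fam107a, chr14:8309864-8309918, minus strand: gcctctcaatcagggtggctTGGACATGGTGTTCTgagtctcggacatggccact
Lca5l, chr16:96192469-96192507, minus strand: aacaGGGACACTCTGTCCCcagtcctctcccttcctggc
Mt1, chr8:94178974-94179028, plus strand: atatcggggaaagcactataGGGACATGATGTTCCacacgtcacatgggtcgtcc
Slc10a6, chr5:103629533-103629587, minus strand: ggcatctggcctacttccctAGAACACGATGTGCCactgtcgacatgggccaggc
Serpina3n, chr12:104406609-104406663, plus strand: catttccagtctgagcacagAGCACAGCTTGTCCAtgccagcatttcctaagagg
Map3k6, chr4:133240616-133240670, plus strand: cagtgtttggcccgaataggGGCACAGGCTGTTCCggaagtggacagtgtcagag
Acnat2, chr4:49408219-49408273, minus strand: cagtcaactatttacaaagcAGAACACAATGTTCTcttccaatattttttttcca
Sgk1, chr10:21993681-21993735, plus strand: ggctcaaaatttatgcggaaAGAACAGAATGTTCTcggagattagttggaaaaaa

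Against the 12 fixed letters of the full consensus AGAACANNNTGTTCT, the Acnat2 and Sgk1 palindromes matched at 12 letters, those of Fam107a and Slc10a6 at 10, those of Mt1, Serpina3n and Map3k6 at 9, and that of Lca5l at 8. GR binding over the Fam107a palindrome had 28.7 tags per 10 M in dKO liver, against 92.2 in control liver. Over the Sgk1 palindrome, in front of a kinase gene long used as a glucocorticoid target, the values were 69.9 in dKO liver and 90.2 in control liver. Over the Mt1 palindrome, at a metallothionein gene, they were 111.4 in dKO liver and 173.3 in control liver. Only 13 shared sites had a palindrome upstream of a start. Of these, the 3 at or above the median ratio matched a median of 12 letters and the 10 below it a median of 9.5, numbers too small to rank the sequences.

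The lists rested on 31.9 M tags in dKO liver and 30 M in control liver, yet 28378 peaks were called in dKO liver and 40853 in control liver. Peaks held 4.1% of all tags in dKO liver and 7.23% in control liver. Before filtering there were 60479 putative peaks in dKO liver and 72489 in control liver, of which the comparison with input removed 21143 in dKO and 18923 in control. The estimated fragment length was 160 bp in dKO liver and 142 bp in control liver, and its part in the differences below was not tested. Under vehicle the fragment lengths were likewise 164 bp in dKO and 140 bp in control liver. The lists hold no transcripts, so the deletion was read from the NCOR1 antibody under vehicle, with 1 library per genotype. That antibody gave 17282 peaks with 2.07% of tags in dKO liver and 39458 peaks with 8.52% in control liver. Sites near hepatocyte genes were common, with 71 shared sites at 17 of 22 such genes, and sites near 12 Kupffer cell and leukocyte markers were few, with 4 shared sites at 4 genes. However, 43 shared sites lay at 12 of 15 neuronal genes, and 29 at 12 of 15 endothelial, stellate and cholangiocyte markers. Such counts therefore cannot show which cells were bound. In whole liver, fewer cells with a bound site and less GR on each site cannot be told apart.

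At shared sites GR binding was mostly lower in dKO liver. The median ratio of the normalized tag count (tags per 10 M), dKO over control, was 0.746, or -0.42 on the log2 scale, with an SD over sites of 0.50. Uncentred, 20572 of 24720 sites (83.2%) were lower in dKO liver and 4040 were higher. A ratio common to all sites cannot be told apart from the scaling of a whole library, so each site is described by its log2 ratio minus the median, called the centred ratio. The quartiles of the centred ratio were -0.32 and 0.30, and the 5% and 95% points were -0.87 and 0.72. Tag counts followed each other across shared sites (Pearson r = 0.862 on log2 values over 24720 sites of the same 2 lists), and peak centres differed by a median of 15 bp.

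A site at least 2-fold under the median ratio was called weakened in dKO, and one at least 2-fold over it raised. There were 802 weakened sites (3.24% of shared sites) and 372 raised sites (1.5%), so 68.3% of the sites past 2-fold were weakened. That split depended on the centre: it was 19.6% (315 and 1289 sites) when the strongest 10% of shared sites set the median, which moved the centre by -0.29 log2 units, and 97.4% (2997 and 80 sites) with no centring. The order of the sites is the same under each centre, and only the line drawn through them moves.

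The ratio depended on how strong a site was. Shared sites with a mean tag count below 10 had a median ratio of 0.837, those of 10 to 20 had 0.765, those of 20 to 40 had 0.617, those of 40 to 80 had 0.597 and those of 80 or more had 0.646. Weakened sites made up 0.390%, 2.67%, 8.29%, 7.94% and 2.91% of these 5 classes in the same order. The weakest class could hardly show a loss, since the lowest tag count in the dKO list was 4.23, and none of 5401 shared sites with under 10 tags in control liver was weakened.

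**Figure D1:**
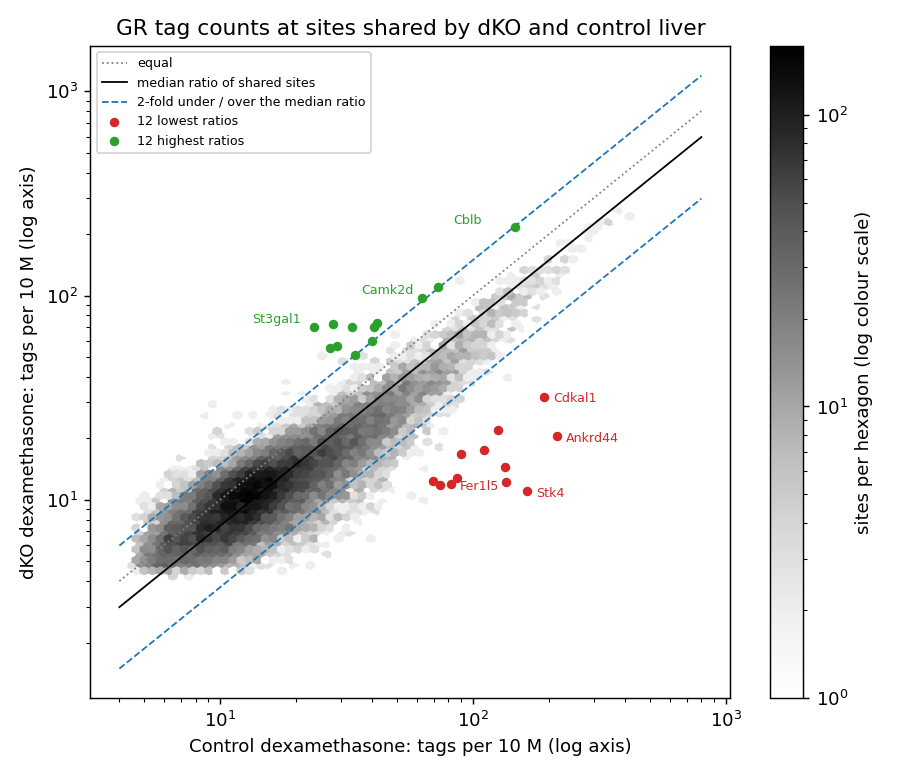
Normalized GR tag counts (tags per 10 M, log axes) at 24720 sites shared by dKO liver (y axis) and control liver (x axis), as hexagons shaded by the number of sites. The black line is the median ratio of 0.746, dashed lines mark 2-fold under and over it, and points mark the 12 lowest (red) and 12 highest (green) ratios among sites of at least 40 tags.

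Sites with a mean tag count of at least 40 and a gene within 100 kb numbered 1654, and the most weakened of them lost nearly all of their signal in dKO liver. The lowest ratio was in Stk4, which encodes the Hippo pathway kinase MST1 (chromosome 2, 164131502 to 164131702). This site had 11 tags per 10 M in dKO liver and 164 in control liver, a ratio of 0.0671 and a centred log2 ratio of -3.48 (95% counting interval -4.02 to -2.98). It was not called in dKO liver under vehicle and had 36.4 tags in control liver under vehicle. A site in Ankrd44 (chromosome 1, 54913061 to 54913261) had 20.5 tags in dKO and 214 in control liver, a centred ratio of -2.96 (-3.36 to -2.60). The same gap was present at the Ankrd44 site under vehicle, with 7.87 tags in dKO and 75.2 in control liver.

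A site in Hsd17b2, whose enzyme inactivates estradiol, had 14.4 tags in dKO liver and 133.5 in control liver (centred -2.79, -3.26 to -2.35). A site 4.82 kb from Serpina1e had 12.2 tags in dKO and 135.4 in control liver (centred -3.05). Serpina1e is one of a cluster of near-identical α1-antitrypsin genes, so its reads may be shared with its copies and the value is uncertain. Cdkal1, a tRNA-modifying enzyme gene, kept 32 tags in dKO against 191.3 in control liver, and this site was called under dexamethasone in both genotypes and under vehicle in neither. Serpina3n, an acute phase protease inhibitor, had 12.4 tags in dKO and 69.4 in control liver at a site 28 kb from the gene (centred -2.06), whereas its promoter site shown above had 37 in dKO and 71.4 in control liver (centred -0.53).

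The other 6 of the 12 lowest sites lay at Fer1l5, Scn2b, Lemd1, Acp7, 2010003K11Rik and Slain2. Over all 12 the tag counts ran from 11 to 32 (median 13.6) in dKO liver and from 69.4 to 214 (median 118.4) in control liver. The gap between these ranges follows from choosing the lowest ratios among strong sites. The next lowest ratio after these 12 was -2.00 on the centred scale. An NCOR1 peak of control liver under dexamethasone overlapped 9 of the 12, beside 77.2% of shared sites within 2-fold that had at least 40 tags in control liver. Under vehicle 3 of the 12 were called in dKO liver and 10 in control liver, beside 44.6% in dKO and 78.3% in control liver over all weakened sites.

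Sites whose binding was kept or was higher in dKO liver were fewer: 66 of the 1654 strong sites had more tags in dKO than in control liver, and 349 (21.1%) lay above the median ratio. The highest ratio was in St3gal1, a sialyltransferase gene (chromosome 15, 67129058 to 67129258), with 70.2 tags in dKO liver and 23.5 in control liver, a ratio of 2.99 and a centred ratio of 2.00 (1.60 to 2.40). A site 16.9 kb from Slc25a30, a mitochondrial carrier gene, had 72.4 tags in dKO and 28 in control liver (centred 1.79, 1.43 to 2.17). A site in the kinase gene Hipk2 had 70.5 tags in dKO and 33.1 in control liver, and Slco1a4, an organic anion transporter, had 55.3 in dKO and 27.3 in control liver. Both of these sites were called under vehicle in dKO liver and not in control liver.

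The largest of the high-ratio sites was in Cblb, an E3 ubiquitin ligase gene, with 215.6 tags in dKO liver and 146.4 in control liver (centred 0.98, 0.81 to 1.16). Under vehicle the Cblb site had 115.6 tags in dKO and 41.9 in control liver. A site 66.1 kb from Tbl1xr1, which encodes a subunit of the NCOR complex, had 70.4 tags in dKO and 40.6 in control liver (centred 1.22, 0.89 to 1.55). Gclc, the catalytic subunit of the enzyme that starts glutathione synthesis, had 110.3 in dKO and 72.8 in control liver at a site 9.45 kb away. The other members of the 12 lay at 4930503B20Rik, Klf6, Camk2d, Micall1 and Rin3. Of the 12 sites 9 were called in both vehicle lists, and 8 of these 9 were higher in dKO liver there too, beside 118 of 1557 strong sites called in all 4 GR lists (7.58%). An NCOR1 peak overlapped 5 of the 12, beside 48.4% of all shared sites. Among shared sites with a mean of at least 40 tags, 1371 had an NCOR1 peak and 430 did not.

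At the strongest site of 7 glucocorticoid-responsive genes binding was lower in dKO liver at every one, with ratios from 0.528 to 0.910, and none was weakened 2-fold beyond the median. Most strong sites were lower too, with 66 of 1654 higher in dKO liver. The counting interval of the uncentred ratio lay below equality at 4 of them and included it at Pck1, G6pc and Tsc22d3. Fkbp5, a chaperone that dampens GR itself, had 350.9 tags in dKO and 595.6 in control liver (chromosome 17, 28420241 to 28420441; centred -0.34, -0.45 to -0.23). Tat, the first enzyme of tyrosine breakdown, had 182.7 in dKO and 291.9 in control liver (centred -0.25, -0.41 to -0.10). Per1, a clock gene that glucocorticoids induce, had 233.8 in dKO and 314.9 in control liver, which lies on the median ratio (centred -0.01, -0.15 to 0.13).

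The gluconeogenic genes Pck1 and G6pc stood above the median ratio at their strongest sites. Pck1 had 43.7 tags in dKO and 49.1 in control liver, 0.312 kb from the gene (centred 0.25, -0.09 to 0.60). G6pc had 63.1 in dKO and 72.6 in control liver at a site 6.82 kb away (centred 0.22, -0.07 to 0.50). Both intervals include the median. The other Pck1 sites were below the median ratio, with 13.9 tags in dKO and 27.8 in control liver at one and 8.31 in dKO and 19.6 in control liver at the other. The other G6pc sites lay on both sides of it. They had 29.1 tags in dKO and 53.6 in control liver (centred -0.46), 23 in dKO and 27.1 in control liver at the site nearest the gene (centred 0.19), and 17.1 in dKO and 24.8 in control liver (centred -0.11).

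Ppargc1a, a coactivator of gluconeogenesis and mitochondrial genes, had 38.7 tags in dKO and 73.3 in control liver (centred -0.50, -0.83 to -0.18) at its strongest site. Of its 12 shared sites 8 were below the median ratio and 2 were weakened, one of them with 7.68 tags in dKO and 34.1 in control liver. Of its 25 control peaks 11 (44%) were control-only, beside 37.3% of all control peaks. Tsc22d3, which encodes the anti-inflammatory protein GILZ, had 58.3 tags in dKO and 64.1 in control liver at a site 26.0 kb away (centred 0.29, -0.01 to 0.59). The strongest shared site inside Tsc22d3 had 32.9 in dKO and 55.8 in control liver (centred -0.34), and the others inside it had centred ratios of -0.16 and 0.51. Over all 45 shared sites of the 7 genes, 40 were lower in dKO liver uncentred, 27 lay below the median ratio and 2 were weakened. The shares over all shared sites were 83.2%, 50% and 3.24% in the same order.

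Under vehicle the genotype gap at these genes was wider at several of the same sites. Fkbp5 had 66 tags in dKO and 335.3 in control liver under vehicle, a ratio of 0.197. Tat had 45 in dKO and 140 in control liver under vehicle, a ratio of 0.321, and Ppargc1a 9.63 in dKO and 26.9 in control liver, a ratio of 0.358. Per1 had 275 in dKO and 344.4 in control liver under vehicle, and the G6pc site was called in control liver alone. Shared sites with a mean of 80 or more tags had a median log2 ratio of -0.63 under dexamethasone and, where called in all 4 GR lists, -0.82 under vehicle. Those of 40 to 80 tags had -0.74 and -0.71 in the same order. A wider gap under vehicle is thus not particular to these genes. The drug states were mapped in different libraries, and whether the gap differed between them was not tested.

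**Figure D2:**
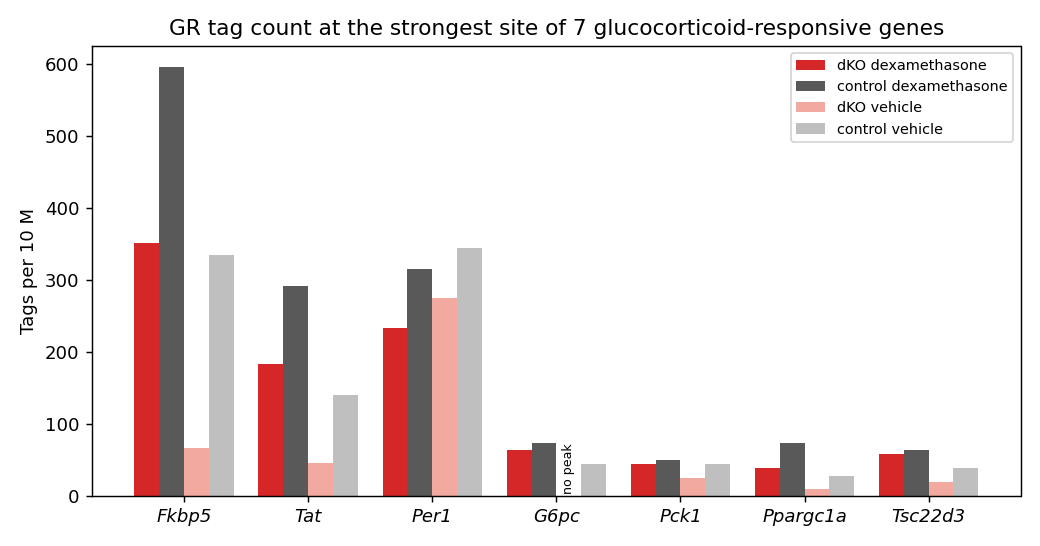
Normalized GR tag counts (tags per 10 M) at the strongest shared site of 7 glucocorticoid-responsive genes in dKO and control liver under dexamethasone and under vehicle, 1 pooled list of 2 libraries per bar. Each dexamethasone bar of dKO liver is below that of control liver, and Fkbp5 stands at 350.9 in dKO and 595.6 in control liver.

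Sites were given to the nearest protein-coding gene within 100 kb and read by lists of genes. Over all shared sites the centred median is 0 by definition, 50% lie below it and 3.24% were weakened. The median mean tag count was 12.9 over all shared sites but 37.2 over the classical GR target list, and since stronger sites had lower ratios, each list was also read against the median of its own strength class, an alternative added after seeing the data.

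Classical GR targets had 99 shared sites at 20 of 22 genes, with a median centred ratio of -0.17; 63 sites lay below the median and 5 (5.05%) were weakened. Against their own strength classes the median was -0.01. At the strongest site of each gene all 20 were lower in dKO liver uncentred, and 16 lay below the median ratio. Over the strongest sites of all 225 listed genes with a shared site, 213 were lower uncentred and 158 lay below the median ratio. Arrdc2, an arrestin-domain gene, had 114.7 tags in dKO and 230.3 in control liver (centred -0.58). The repressor gene Bcl6 had 71.6 in dKO and 141.7 in control liver at a site 91.8 kb away (centred -0.56). Zbtb16 was at the median, with 415.3 in dKO and 547.6 in control liver (centred 0.02).

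Gluconeogenesis and its regulators had 88 shared sites with a median of -0.24, of which 59 lay below the median ratio and 4 were weakened. By strength class the median was -0.10. The transcription factor genes Hnf4a (17.9 tags in dKO, 45.6 in control liver; centred -0.93) and Cebpa (25.2 in dKO, 62.6 in control liver; centred -0.89) were lowest at their strongest sites. The Cebpa site lay 28.5 kb from the gene. Pdk4, whose kinase spares glucose by blocking pyruvate oxidation, was highest, with 63.8 tags in dKO and 47.6 in control liver (centred 0.85, 0.53 to 1.17). It was the 1 gene of 18 whose interval lay wholly above the median, against 7 wholly below. At classical GR targets 0 of 20 lay wholly above and 10 wholly below, and the share over all listed genes is not given here.

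Amino acid breakdown and the urea cycle had a median of -0.29 over 46 sites, and by strength class of -0.23. The order of the lists changed with the setting: with the strongest site of each gene this list had -0.25, and lipogenesis -0.38. The urea cycle gene Ass1 had 33.2 tags in dKO and 86.4 in control liver (centred -0.96, -1.29 to -0.62), and Hpd, of tyrosine breakdown, had 67.4 in dKO and 141 in control liver (centred -0.64). Cps1, the first enzyme of the urea cycle, had 94.2 in dKO and 155.7 in control liver (centred -0.30). Arg1 was close to the median, with 56.1 in dKO and 77.6 in control liver (centred -0.05).

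Insulin signalling and glycogen genes had a median of -0.09 over 83 sites, and 0 sites were weakened. At strongest sites the glycogen-targeting subunit genes were low: Ppp1r3c had 69.1 tags in dKO and 157 in control liver (centred -0.76), and Ppp1r3b 60.3 in dKO and 116.4 in control liver (centred -0.53). The strongest site given to Ptpn1, a phosphatase that dampens insulin signalling, had 511.2 in dKO and 626.2 in control liver (centred 0.13), but it lay 86.0 kb from the gene. Taking the strongest site of each gene only, the list median was -0.27.

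Lipogenesis genes had 75 sites with a median of -0.24 (by strength class -0.13), 53 of them below the median ratio. Fads2, a fatty acid desaturase, had 15.8 tags in dKO and 43.8 in control liver (centred -1.05), and the citrate lyase gene Acly 13.6 in dKO and 35.8 in control liver (centred -0.97). Thrsp had 27.3 in dKO and 62.4 in control liver (centred -0.77). The carbohydrate-response factor Mlxipl was above the median, with 27.3 in dKO and 30 in control liver (centred 0.29).

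Genes of fatty acid oxidation and ketogenesis had a median of -0.04 over 43 sites, and at their strongest sites 4 of 14 had intervals wholly above the median and 2 wholly below. Each other list had 0 to 2 genes wholly above, and Pdk4 and Ppara were also counted in another list. The strongest site lay below the median ratio at 8 of 14 genes, beside 158 of 225 over all listed genes. Fgf21, a fasting hormone, had 29.9 tags in dKO and 28.3 in control liver (centred 0.50), and Ppara, the receptor that drives fatty acid oxidation, 55.9 in dKO and 57.3 in control liver (centred 0.39).

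Clock genes had a median of -0.01 over 64 sites, with 0 weakened and 2 raised. Cry2, a clock repressor, had 32.1 tags in dKO and 60.8 in control liver (centred -0.50), and Rora 43.1 in dKO and 80.6 in control liver (centred -0.48). Per2 lay at the median, with 121.1 in dKO and 161 in control liver (centred 0.01).

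Bile acid and cholesterol genes had a median of -0.24 over 64 sites (by strength class -0.10), and 3 were weakened. The 2 lowest strongest sites were far below the rest. Cyp7b1, an enzyme of the alternative bile acid pathway, had 7.52 tags in dKO and 38.1 in control liver (centred -1.92, -2.61 to -1.27). Srebf2, the master regulator of cholesterol synthesis, had 27.3 in dKO and 118.9 in control liver (centred -1.70, -2.06 to -1.36), and under vehicle 14.9 in dKO and 67.9 in control liver. Cyp7a1, the rate-limiting enzyme of the classical pathway, was close to the median, with 31.7 in dKO and 44.5 in control liver (centred -0.07), as was the receptor gene Nr0b2, with 58.8 in dKO and 77.4 in control liver (centred 0.03).

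Acute phase and inflammation genes had a median of -0.27 over 62 sites (by strength class -0.11), and the strongest site lay below the median ratio at 18 of 20 genes, beside 158 of 225 over all listed genes. Stat3, which carries interleukin-6 signals, had 12.8 tags in dKO and 36.1 in control liver (centred -1.07), and the serum amyloid gene Saa1 27.9 in dKO and 69.9 in control liver (centred -0.90). The haptoglobin gene Hp had 35.9 in dKO and 69.1 in control liver (centred -0.52). Il1rap was the highest member, with 27.9 in dKO and 31.6 in control liver (centred 0.24).

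Hepatocyte identity genes had a median of -0.25 over 71 sites (by strength class -0.10), and 6 sites (8.45%) were weakened. Foxa2, a pioneer factor gene, had 22.4 tags in dKO and 91.4 in control liver at a site 98.5 kb away (centred -1.61, -2.01 to -1.23). Apob had 12.4 in dKO and 42.5 in control liver (centred -1.35), and Alb, the albumin gene, 113.6 in dKO and 203.3 in control liver (centred -0.42). These sites lay 30.4 kb from Apob and 36.1 kb from Alb. Foxa1 had 10.7 in dKO and 10.7 in control liver (centred 0.42).

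P450 and xenobiotic genes had a median of -0.10 over 38 sites, with Cyp2e1 (19.3 tags in dKO, 55.6 in control liver; centred -1.10) and the glutathione transferase gene Gsta3 (26.8 in dKO, 75.6 in control liver; centred -1.07) lowest. The sites lay 14.8 kb from Cyp2e1 and 40.2 kb from Gsta3. Nuclear receptor genes had a median of 0.05 over 73 sites. The strongest site of Nr3c1, the gene of GR itself, had 16.9 tags in dKO and 54.3 in control liver (centred -1.26, -1.73 to -0.81), while the median over its 7 shared sites was 0.25. Corepressor complex genes had a median of 0.12 over 37 sites at 7 of 10 genes. Ncor1 had 1 shared site, with 17.6 tags in dKO and 14.8 in control liver (centred 0.67, 0.09 to 1.29).

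Marker lists of other liver cells and a list of neuronal genes, from a tissue not sampled, were read in the same way. Endothelial, stellate and cholangiocyte markers had a median of -0.24 over 29 sites, and Stab2, a scavenger receptor of liver sinusoidal endothelium, had 40.4 tags in dKO and 149.4 in control liver (centred -1.46). Kupffer cell and leukocyte markers had a median of -0.05 over 4 sites. Neuronal genes had a median of 0.08 over 43 sites, of which 3 (6.98%) were weakened; at strongest sites Grin2b had 30.6 in dKO and 106.6 in control liver (centred -1.38). The medians of these 3 lists, -0.24 to 0.08, cover much of the range of all lists, -0.29 to 0.12, and no list was tested against another.

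**Figure D3:**
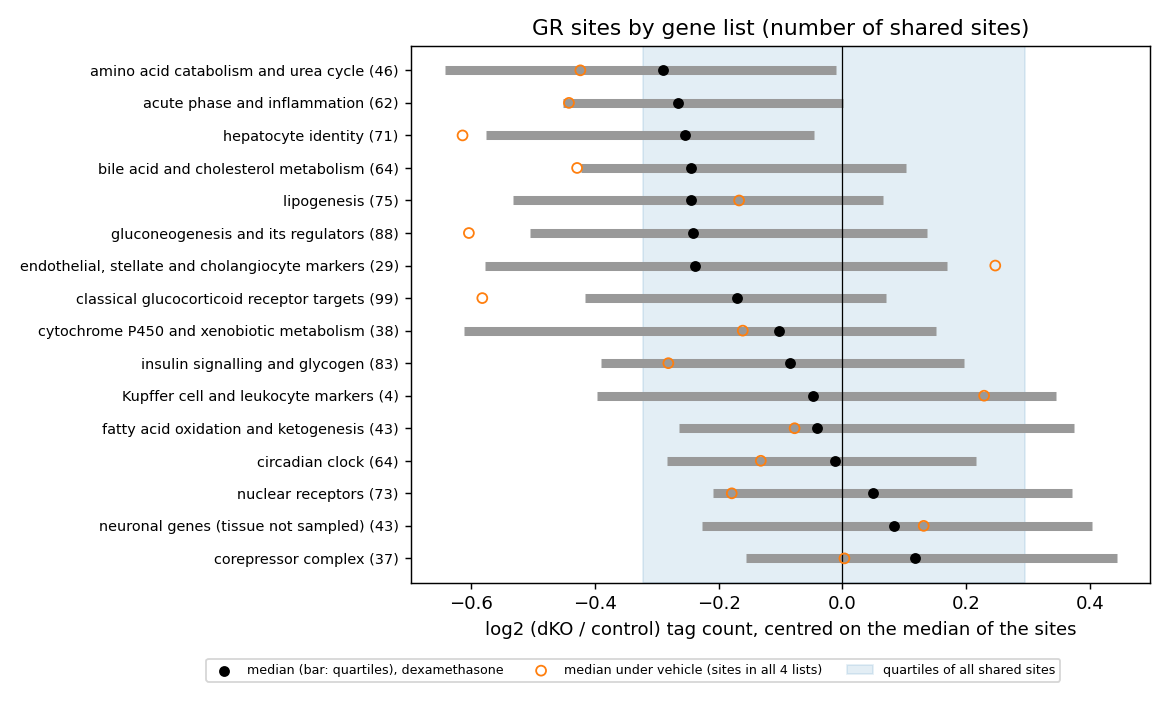
Centred log2 ratio (dKO over control) of shared GR sites by gene list: black points are medians under dexamethasone, grey bars their quartiles, open circles medians under vehicle at the sites found in all 4 GR lists, and the blue band the quartiles of all shared sites. Dexamethasone medians run from -0.29 (amino acid catabolism and urea cycle) to 0.12 (corepressor complex), all inside the blue band of -0.32 to 0.30.

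Condition-only sites were mostly weak. The dKO list had 3039 dKO-only sites among 28378 peaks (10.7%), with a median of 6.89 tags, and the control list 15227 control-only sites among 40853 (37.3%), with a median of 8.49 tags. For dKO-only sites, the share was 19.1% of dKO peaks with under 10 tags, 5.05% of those with 10 to 20, 1.38% of those with 20 to 40 and 0 of 327 with 80 or more. Among control peaks 62.5% of those with under 10 tags were control-only, 28.5% of those with 10 to 20, 13.9% of those with 20 to 40, 2.90% of those with 40 to 80 and 0.376% of those with 80 or more. Less than 8-fold enrichment over the surrounding 10 kb was found at 89.3% of dKO-only and 73.7% of control-only sites, against a calling limit of 4-fold. A missing peak means that none was called at this depth, not that GR was absent.

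The strongest dKO-only sites lay beside genes that had control peaks nearby. Mical2 had 43.7 tags at a site 31.4 kb away, and Acot2, an acyl-CoA thioesterase gene, had 43.7 at 0.968 kb with a control peak 0.833 kb off. Dusp1, an inflammation-restraining phosphatase gene, had 36.4, and Tat had 31.7 at a site 6.51 kb away, while the shared Tat sites had fewer tags in dKO than in control liver. Synpo, Prkce, Creb3l2, Slc16a12, Smarcd1 and Enpp2 had between 34.3 and 27.7. A control peak lay within 5 kb of each of the 10, and a dKO peak within 5 kb of 7 of the 10 strongest control-only sites. The share over all dKO-only sites is not given here. Of the 10 named dKO-only sites 6 were also called under vehicle in dKO liver and 1 in control liver, beside 25.7% and 24.1% of all dKO-only sites.

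The strongest control-only site lay in Hmcn2, an extracellular matrix gene, with 94.7 tags (chromosome 2, 31459313 to 31459513), and was called in control liver under vehicle with 59.2. It was not called in dKO liver in either state, and the nearest dKO peak was 0.889 kb away. Agtpbp1 had 83.3 tags 2.75 kb from the gene, 7.64 kb from the nearest dKO peak, with 46.8-fold enrichment over the local 10 kb, and Ptprd, a receptor phosphatase gene, had 74.8 tags, 20.7 kb from any dKO peak. Dab2 had 80.9 tags at a site 78.3 kb away, the repressor gene Zbtb16 74.3 and Lpin1, a phosphatidate phosphatase gene, 71.6. Dpys, Ube2g2, Serpina1e and Fam171b had between 67.1 and 58.1. Of these 10 sites 6 had less than 8-fold local enrichment. Under vehicle 6 were called in control liver and 1 in dKO liver, beside 32.8% and 14.4% of all control-only sites. An NCOR1 peak overlapped 7 of the 10, beside 57.4% of the 61 control-only sites with at least 40 tags.

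The genes with most control-only sites were mostly long. Arid1b, a subunit of a chromatin remodelling complex, had 20 control-only sites among 39 control peaks, and 20 dKO peaks. Zbtb20, Foxp1, Lpp, Magi1, Sox5, Nfia and Man2a1 had 12 to 17 control-only sites each. As a share of control peaks this was 35.6% at Lpp, 37.1% at Nfia, 40.5% at Sox5 and 60% at Magi1, beside 37.3% over all control peaks, so several of these genes had many peaks rather than a high share. Esrrg, an orphan nuclear receptor gene, had 13 control-only sites among 16, and Jak1, a cytokine receptor kinase gene, 13 among 18. The 10 genes, ranked by their control-only sites, together had 17 dKO-only and 150 control-only sites, beside 3039 and 15227 over all peaks. Of the 10, 8 were longer than 300 kb, and the share of such genes among all genes is not given here. At the other end, Cfap54, Mgll, a monoglyceride lipase gene, and Ppargc1b each had 8 control peaks, all shared, and 1110059E24Rik, Acsl4, Adamts9, C8a, Gm5820, Hdac4 and Nfatc1 had 7 shared and 0 control-only sites. These genes lay on both sides of the median ratio, with a median centred ratio of 0.32 at Cfap54, -0.18 at Mgll and -0.55 at Adamts9.

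Among the gene lists the control-only share of control peaks ran from 23.1% at classical GR targets (30 of 130, 95% Clopper-Pearson interval 16.1 to 31.3) to 35.7% at hepatocyte identity genes (41 of 115), beside 37.3% over all control peaks. Strong peaks were control-only less often, and the median mean tag count of shared sites was 37.2 at classical GR targets and 21.4 at hepatocyte identity genes, beside 12.9 over all. Named by the strongest such site, they included Klf15 (49.5 tags) and Cebpb (42.5) among gluconeogenic genes, Thrsp (50.0) among lipogenic genes, Ppp1r3b (46.0) among glycogen genes, Saa1 (45.5) among acute phase genes and Cyp2b10 (39.5) among P450 genes. The sites lay 91.3 kb from Cebpb and 29.9 kb from Ppp1r3b. Serpina1c, another α1-antitrypsin copy, had no shared site, with 3 dKO-only and 2 control-only peaks.

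The vehicle libraries gave a second reading of the genotype difference. Of the shared sites 16144 (65.3%) were also called in both vehicle lists, and there the median ratio was 0.758 under dexamethasone and 0.873 under vehicle. The centred ratios of the 2 states went together across these sites (Pearson r = 0.503, Spearman rho = 0.443, a description over sites that share the input library). Of 350 sites weakened under dexamethasone, 168 were also at least 2-fold under the median of the vehicle ratio, beside 741 of all 16144 sites (4.59%). Of 145 raised sites 16 were also raised under vehicle, beside 75 of all (0.465%), and 0 sites were past 2-fold in opposite directions. Those counts use sites that had to be called in all 4 lists, which leaves out losses below the calling limit.

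**Figure D4:**
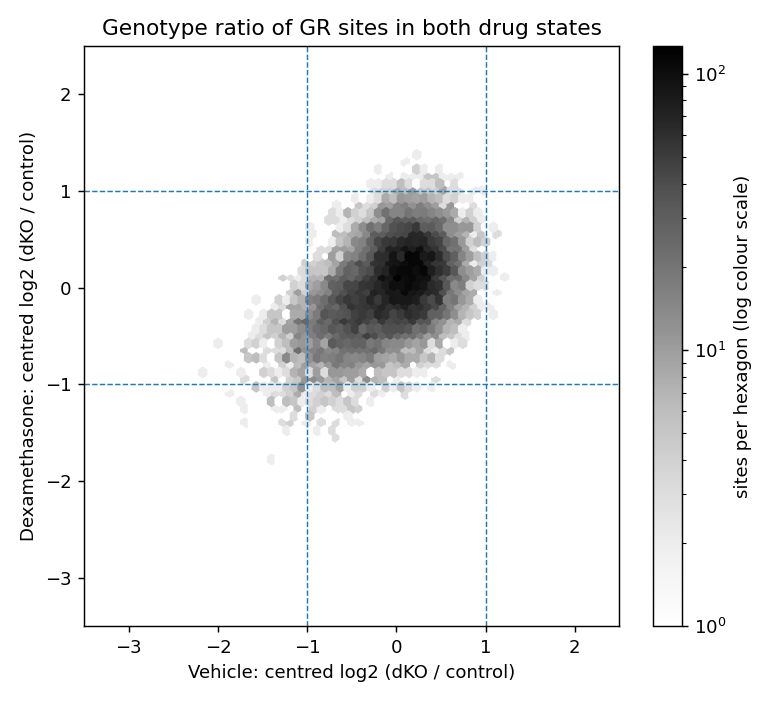
Centred log2 ratio (dKO over control) under dexamethasone (y axis) against that under vehicle (x axis) at 16144 sites called in all 4 GR lists, shaded by the number of sites per hexagon. Dashed lines mark 2-fold; the points rise together (Pearson r = 0.503), and no site lies past 2-fold in opposite corners.

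Weakened sites were called in the dKO vehicle list in 44.6% of cases (95% Clopper-Pearson interval 41.2 to 48.2) and in the control vehicle list in 78.3% (75.3 to 81.1). Over all shared sites the shares were 70.02% in dKO vehicle and 77.84% in control vehicle. Weakened sites thus stood below all shared sites in the dKO list only. Raised sites showed the opposite order, with 66.4% (61.3 to 71.2) in dKO vehicle and 43.5% (38.4 to 48.8) in control vehicle. Their interval lay below the share of all shared sites in the control list only. The dKO-only sites were found in 25.7% of cases in the dKO vehicle list and in 24.1% in the control vehicle list. Control-only sites were called in 14.4% of cases in dKO liver under vehicle and in 32.8% in control liver under vehicle, and 63.3% were in neither. Shared sites that only the dKO vehicle list also held had a median centred ratio of 0.17 and 8.76% were raised, whereas shared sites that only the control vehicle list held had a median of -0.23 and 8.97% were weakened.

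NCOR1 peaks overlapped most of the weakened sites. An NCOR1 peak of control liver under dexamethasone overlapped 616 of 802 weakened sites (76.8%, 73.7 to 79.7), 47.6% of shared sites within 2-fold and 33.9% of raised sites (29.1 to 38.9). It overlapped 32.3% of dKO-only and 49.7% of control-only sites. Strong GR sites overlap NCOR1 more often, and weakened sites are stronger. Among shared sites with 10 to 20 tags in control liver, 82 of 114 weakened sites (71.9%, 62.7 to 79.9) and 37.0% of those within 2-fold had an NCOR1 peak. No dKO peak had under 4.23 tags, so weakened sites of this class could not lie near 10 tags in control liver. Strength is therefore not fully matched within it. With 20 to 40 tags the shares were 75.3% (70.7 to 79.6) of weakened sites and 70.4% (69.0 to 71.7) of those within 2-fold, and with 40 or more 80.5% (75.6 to 84.7) and 77.2% (75.5 to 78.9) in the same order. The intervals of these stronger classes overlapped. Overlaps at GR sites that also had an NCOR1 peak in dKO liver under vehicle (1 library) were then left out. With 20 to 40 tags the shares became 71.4% (66.6 to 75.9) of weakened sites and 55.1% (53.7 to 56.6) of those within 2-fold. They were 76.2% (71.1 to 80.9) of weakened sites and 60.1% (58.1 to 62.1) of those within 2-fold with 40 or more tags, and these intervals were apart. In that class the step took the overlaps from 247 to 234 at weakened sites and from 1858 to 1447 at those within 2-fold. Weakened sites were chosen by low GR signal in dKO liver, and the step also uses signal in dKO liver. The separation is therefore not independent of how the classes were made.

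Read the other way, 11956 shared sites with an NCOR1 peak had a median centred ratio of -0.16 and 12764 without one had 0.13. Within classes of mean tag count, the medians with and without NCOR1 were 0.12 and 0.20 below 10 tags, -0.14 and 0.14 from 10 to 20, -0.32 and -0.14 from 20 to 40, and -0.31 and -0.16 at 40 or more. The median was lower with NCOR1 in each of the 4 classes. NCOR1 peaks under dexamethasone in dKO liver were not analysed here.

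**Figure D5:**
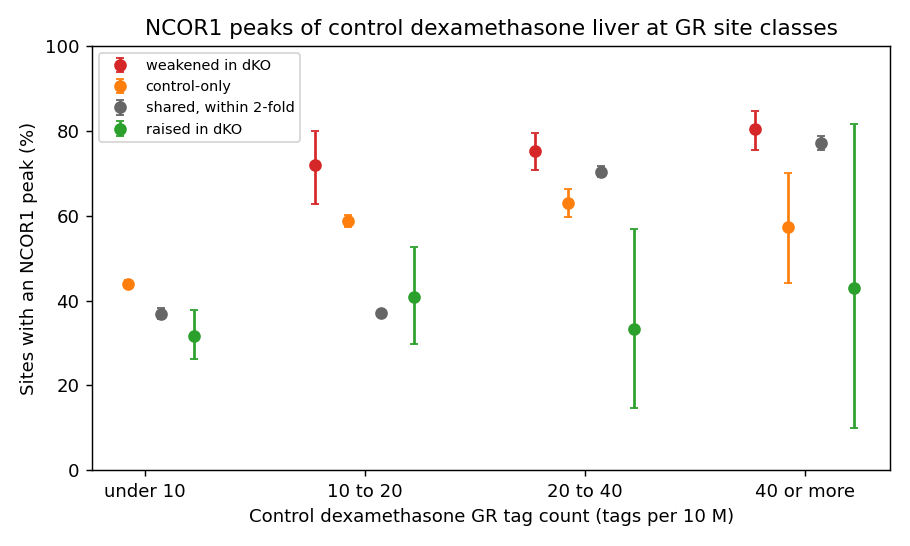
Share of GR sites (%) that overlap an NCOR1 peak of control liver under dexamethasone, by class of site and by GR tag count in control liver; bars are 95% Clopper-Pearson intervals and cover counting error only. Weakened sites stand at 71.9% with 10 to 20 tags, where sites within 2-fold stand at 37.0% and strength is not fully matched. With 40 or more tags the shares are 80.5% and 77.2% in the same order.

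By position, 1201 shared sites lay within 250 bp of an annotated start, and their median centred ratio was 0.12, with 11 weakened (0.916%). The 12690 other sites inside a gene body had a median of 0.00 and those outside genes by 10 to 100 kb -0.02, with 3.14% and 3.73% weakened. Sites at starts also kept this difference at 10 to 20 mean tags, with medians of 0.12 at starts and 0.04 elsewhere in gene bodies. In contrast to their ratio, start sites were condition-only more often: 13.4% of dKO peaks at starts were dKO-only and 43.1% of control peaks at starts were control-only, beside 10.7% and 37.3% over all peaks. The ratios of close neighbours were more alike than those of distant ones. Neighbouring shared sites within 5 kb had a Pearson r of 0.372 between their centred ratios (2146 pairs) and those over 50 kb apart 0.0468 (10558 pairs). Within 1066 genes with at least 5 shared sites the median SD of the centred ratio was 0.42, against 0.50 over all shared sites. An SD of few sites tends to fall below that of many, and no comparison with sites drawn at random was made. These SDs therefore cannot show whether sites of 1 gene were alike.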

How the data were processed

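Per the submitters' processing notes, the mm10 build, HOMER 4.11, BWA 0.7.17, Trim Galore 0.6.4 and bedtools 2.29.2 were used. Per the file headers, the authors called 200 bp peaks with findPeaks against input, at 4-fold or more over input and over the local 10 kb. The values deposited by the authors are the normalized tag count, which is a signal per 10 M tags, a findPeaks score, and fold (a ratio) over input and over the local region. Replicates were pooled in each list, except that the NCOR1 vehicle lists of dKO and control liver rest on 1 library each. Lists were paired by overlap, the log2 ratio (dKO over control) was centred on its median, and sites went to the nearest protein-coding gene body within 100 kb. Intervals are exact (95%) and cover counting error only; PCR copies are not independent molecules. Pairing was tested on simulated data. Strong sites were named by rank (12 lowest and highest ratios with a mean of at least 40 tags, 10 strongest condition-only sites), and list members by their strongest site. Members and gene lists were chosen with earlier results of these data known. The analysis used Python 3.11.15, pandas 2.3.3, NumPy 2.4.6 and SciPy 1.17.1.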

Additional observations from a re-analysis of the deposited data

How the results depend on the processing

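No paired analysis was possible because each GR list pools its 2 libraries, and for the same reason no replicate could be left out. Of 129 values of comparisons recomputed under alternatives, 99 stayed inside their interval or within 1.5 times the reported count. Requiring at least 8-fold over input left 16082 shared, 500 weakened, 223 raised, 1407 dKO-only and 7571 control-only sites. At least 8-fold over the local 10 kb left 324 dKO-only and 4007 control-only sites. With the control list cut to the length of the dKO list there were 7082 dKO-only and 6920 control-only sites, counts that equal list lengths make nearly equal by construction. A pseudocount of 5 gave 401 weakened and 86 raised sites. Centring on the strongest 10% of sites gave 315 weakened and 1289 raised sites, and no centring 2997 and 80. The median log2 ratio was -0.41 by the findPeaks score and -0.57 at sites from the median mean tag count upwards. With the strongest site of each gene, list medians were -0.27 (insulin and glycogen), -0.38 (lipogenesis), -0.14 (nuclear receptors) and -0.22 (neuronal genes). Centring within classes of mean tag count, chosen after seeing the data, gave -0.010 (classical GR targets), -0.11 (acute phase) and -0.10 (hepatocyte identity). The control-only share was 20% for amino acid genes within 10 kb, and with at least 8-fold over input it was 17.2% for lipogenesis, 26.7% for hepatocyte identity and 20.3% for nuclear receptors. With an overlap of at least 100 bp, NCOR1 peaks lay at 43.5% of shared sites within 2-fold and at 45.2% of control-only sites. By score, 286 of 287 named sites stayed inside their interval, and 27 of 29 named weakened sites remained past 2-fold. The cause was not tested where a value moved. Depth limits weak sites: few losses can be seen where control liver had under 10 tags.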
